A study of Mus musculus with 12 samples.

Results

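The change over 2 further days of culture under silencing of *Zbed6* was followed in C2C12, an established line of mouse myoblasts able to form contractile myotubes. The comparison used the 6 arrays of silenced cells, 3 collected at 96 h and 3 at 48 h after transfection, of 12 arrays in the series. Silenced cells carried a pool of siRNAs against *Zbed6*, and the other 6 arrays, 3 at 96 h and 3 at 48 h, carried scrambled siRNA as the control. All groups were seeded in medium with serum, received the siRNA with a lipid reagent at seeding, and were labelled as biological triplicates. No change to a differentiation medium is described for them. Time after transfection, time in culture and any change in the depth of silencing ran together and cannot be told apart. All cultures belong to 1 cell line.

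ZBED6 arose from a domesticated transposon, binds DNA in placental mammals and is best known for repressing *Igf2*, which encodes an insulin-like growth factor of muscle growth. Myoblasts that leave the cell cycle express myogenin, fuse and then build sarcomeres, the repeating units of actin and myosin that shorten in contraction. Calcium released from the sarcoplasmic reticulum triggers contraction, and embryonic and perinatal forms of contractile proteins are later replaced by adult forms.

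A probe was tested if it was detected, at a detection p-value below 0.05, on 3 or more of the 12 arrays, which kept 13095 of 25697 probes and 8858 named genes. Signals are given on a log2 scale after background correction and quantile normalization, so they compare groups for a probe but not probes with each other. Between 47.0% and 48.9% of probes were detected per array. The lowest correlation within a group was 0.9925, and silenced 96 h arrays correlated with silenced 48 h arrays at 0.973 to 0.983. Groups were compared by limma over all kept probes with Benjamini-Hochberg adjustment, and a probe was called at an adjusted p under 0.05. In a bulk culture, fewer cells of a type and less RNA per cell cannot be told apart.

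Markers of myoblasts were detected at both times. *Myod1*, the myogenic determination factor, averaged 11.71 at 96 h and 11.77 at 48 h in silenced cells, and *Des*, the muscle intermediate filament, averaged 14.28 at 96 h and 14.07 at 48 h. *Ncam1*, an adhesion molecule, averaged 12.85 at 96 h and 12.70 at 48 h. *Myog*, the gene of myogenin, averaged 12.53 at 96 h and 12.86 at 48 h, so that a factor of differentiating cells was detected already at the earlier time. *Myf5* and *Pax7*, markers of uncommitted myoblasts and satellite cells, had probes that did not pass the detection filter, and *Cdh15* was not analysed here. No kept probe carried the name *Zbed6*, so these arrays did not measure the depth of silencing at either time. The study's quantitative PCR gave a smaller reduction of *Zbed6* mRNA at 96 h than at 48 h, so silencing need not have been constant.

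The *Igf2* signal was 14.68, 14.59 and 14.53 at 96 h, against 14.74, 14.64 and 14.52 at 48 h in silenced cells, and the groups overlapped. The difference was −0.03 ± 0.10 (log2, SE, n = 3 arrays each, limma adjusted p = 0.844, exact two-sided permutation p = 0.8, where 0.1 is the smallest p that 3 against 3 allows). In control cells *Igf2* averaged 14.15 ± 0.05 at 96 h and 14.28 ± 0.15 at 48 h (SD, n = 3 each). These signals lie near the upper end of the scale, where changes can be compressed. Whether a rise was missed for that reason was not tested. By the study's quantitative PCR, the increase of *Igf2* over control cells grew from 48 h to 96 h. That comparison is between treatments at each time, not between times within silenced cells. *Zc3h11a*, the host gene of *Zbed6*, averaged 5.6 ± 0.17 at 96 h and 5.30 ± 0.18 at 48 h in silenced cells and was detected on 1 of 3 arrays at 48 h. Its difference did not pass the test (limma adjusted p = 0.0907). It did without silenced 48 h replicate 1 (log2 change 0.40) or without silenced 96 h replicate 1 (log2 change 0.39).

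A large share of the probes changed between the times. Of 13095 probes, 3700 were called (28.3%), 1844 of them higher at 96 h (14.1%) and 1856 lower (14.2%). With arrays scaled to a common median in place of quantile normalization, 1581 were higher and 2349 lower. The changes were mostly modest: 1361 called probes changed over 1.5-fold, 379 over 2-fold and 37 over 4-fold, and of the last 27 were higher and 10 lower. Of the 3700 called probes, 3584 (96.9%) had no overlap between the 96 h and 48 h arrays. By the brightest probe of each gene, 1349 of 8858 genes (15.2%) were higher at 96 h and 1072 (12.1%) were lower. These gene shares are the background for the gene groups that follow.

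**Figure D1:**
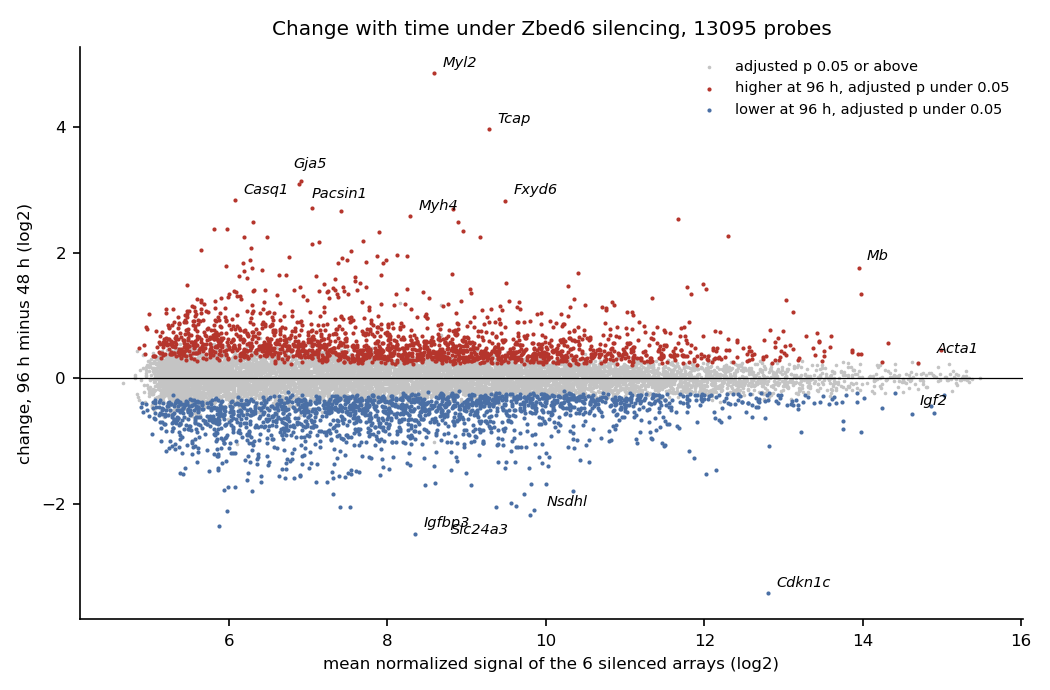
Change of each of 13095 probes under *Zbed6* silencing (vertical axis, log2, 96 h minus 48 h) against its mean signal over the 6 silenced arrays (horizontal axis, log2). Red points passed the limma test as higher and blue points as lower at 96 h; *Myl2* (4.86) and *Tcap* (3.97) stand at the top and *Cdkn1c* (−3.42) at the bottom, while *Acta1* and *Igf2* sit near 0 at the bright end.

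The 2 largest rises among the named genes were in genes of the contractile apparatus. *Myl2*, the regulatory light chain of slow and cardiac myosin, had signals of 11.24, 10.99 and 10.82 at 96 h, against 5.82, 6.82 and 5.83 at 48 h. All 96 h arrays lay far above all 48 h arrays, and the gene was 29-fold higher at 96 h (log2 change 4.86 ± 0.25 SE, limma adjusted p = 6.22e-08, exact two-sided permutation p = 0.1). The largest rises were named only if the times did not overlap, which fixes the permutation p at 0.1, the smallest possible. *Tcap*, which encodes the titin cap protein telethonin, had 11.52, 11.13 and 11.17 at 96 h, against 7.49, 7.28 and 7.14 at 48 h, a 15.6-fold rise (limma adjusted p = 2.16e-09). Its groups did not overlap, which was so for most called probes.

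*Casq1*, the calcium-binding protein of the sarcoplasmic reticulum in fast fibres, was detected on all 96 h arrays at 7.66, 7.41 and 7.41. It was not above background on any 48 h array. For such genes a fold is a lower bound, taken on each dim array against the higher of the lowest detected signal and the gene's own signal. *Casq1* was at least 4.33-fold higher at 96 h on this basis (limma adjusted p = 4.39e-09). Among myosin heavy chains, *Myh1*, an adult fast form, had 13.06, 12.81 and 12.94 at 96 h, against 10.38, 10.60 and 10.22 at 48 h, a 5.79-fold rise. *Myh4*, another adult fast form, had 9.84, 9.56 and 9.33 at 96 h, against 6.84, 7.38 and 6.75 at 48 h. The slow form *Myh7* rose by 1.45 ± 0.25 and the perinatal form *Myh8* by 1.35 ± 0.16 (log2, SE), so that slow, fast and perinatal chains all rose.

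The proximal promoters of 3 of the muscle genes with the largest rises are shown because these members moved together. They come from RefSeq (build GRCm38.p6), each 300 bases long around a start site and read on the strand of the gene. Capitals mark the E-box CAGCTG, a form bound by myogenic factors, and in *Myh4* also a match to the MEF2 motif. *Tcap* is named only. *Myl2* has 2 annotated starts, and the upstream one is shown.
Myl2 (chr5:122092474-122092773, plus strand): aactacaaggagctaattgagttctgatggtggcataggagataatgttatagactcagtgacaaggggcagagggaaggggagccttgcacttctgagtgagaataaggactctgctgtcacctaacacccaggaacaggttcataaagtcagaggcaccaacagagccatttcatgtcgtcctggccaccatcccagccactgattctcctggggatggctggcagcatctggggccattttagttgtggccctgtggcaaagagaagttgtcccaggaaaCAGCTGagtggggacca
Casq1 (chr1:172219846-172220145, minus strand): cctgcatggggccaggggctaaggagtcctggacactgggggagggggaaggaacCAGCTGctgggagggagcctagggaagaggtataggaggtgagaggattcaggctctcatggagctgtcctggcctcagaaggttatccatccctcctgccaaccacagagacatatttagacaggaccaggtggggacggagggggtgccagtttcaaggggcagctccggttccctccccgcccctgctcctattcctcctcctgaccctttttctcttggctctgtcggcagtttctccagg
Myh4 (chr11:67237562-67237861, plus strand): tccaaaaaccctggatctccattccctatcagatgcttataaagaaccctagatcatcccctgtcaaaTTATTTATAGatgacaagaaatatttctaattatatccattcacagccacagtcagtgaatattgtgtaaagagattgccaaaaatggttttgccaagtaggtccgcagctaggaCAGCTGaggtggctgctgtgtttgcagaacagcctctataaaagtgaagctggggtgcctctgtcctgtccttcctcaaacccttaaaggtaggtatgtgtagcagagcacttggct
Each of the 3 genes held the E-box, searched on both strands, and 1 of 3 held a MEF2 match. Of all 32851 promoter windows of the same length, 16.3% held this E-box and 3.19% the MEF2 motif. A match describes letters in the window and not a bound site.

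Across the sarcomere list, 23 of 44 measured genes rose, 3 fell and 18 did not pass the test, with a median change of 0.37 against 0.02 over all genes. *Mybpc2*, a myosin-binding protein of fast fibres, rose by 1.63 ± 0.29 (log2, SE, as for the changes below). *Tmod4*, which caps the thin filament, rose by 1.5 ± 0.16 and *Myoz2*, a Z-disc protein, by 1.06 ± 0.14. *Myot*, the Z-disc protein myotilin, was not above background on any 48 h array and was at least 1.81-fold higher at 96 h. The actinins of the Z-disc, *Actn2* and the fast-fibre form *Actn3*, rose by 0.74 ± 0.17 and 0.77 ± 0.14.

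The 3 sarcomere genes that fell were *Actc1*, *Pdlim5* and *Tmod1*. *Actc1*, the cardiac actin that immature skeletal muscle also expresses, had 14.67, 14.64 and 14.59 at 96 h, against 15.16, 15.27 and 15.10 at 48 h. *Pdlim5*, a Z-disc protein with PDZ and LIM domains, fell by 1.35 ± 0.13 by its brightest probe, and its other probes gave −1.06, −0.43 and −0.07. *Tmod1*, another cap of the thin filament, changed by −0.51 ± 0.13, a call that was lost without silenced 48 h replicate 1.

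For several contractile genes the probe already read near the top of the signal range at 48 h. *Acta1*, skeletal actin, had 15.10, 15.11 and 15.20 at 96 h, against 15.05, 15.08 and 15.06 at 48 h. *Tnnc1*, slow troponin C, averaged 15.38 at 96 h and 15.39 at 48 h, and *Mylpf*, the fast regulatory light chain, averaged 15.28 at 96 h and 15.28 at 48 h. *Myl1*, an essential light chain, averaged 15.29 at 96 h and 15.30 at 48 h and *Tnnc2*, fast troponin C, 15.17 at 96 h and 15.14 at 48 h. None of these 5 genes passed the test, and signals at the upper end leave little room for a rise to be seen.

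**Figure D2:**
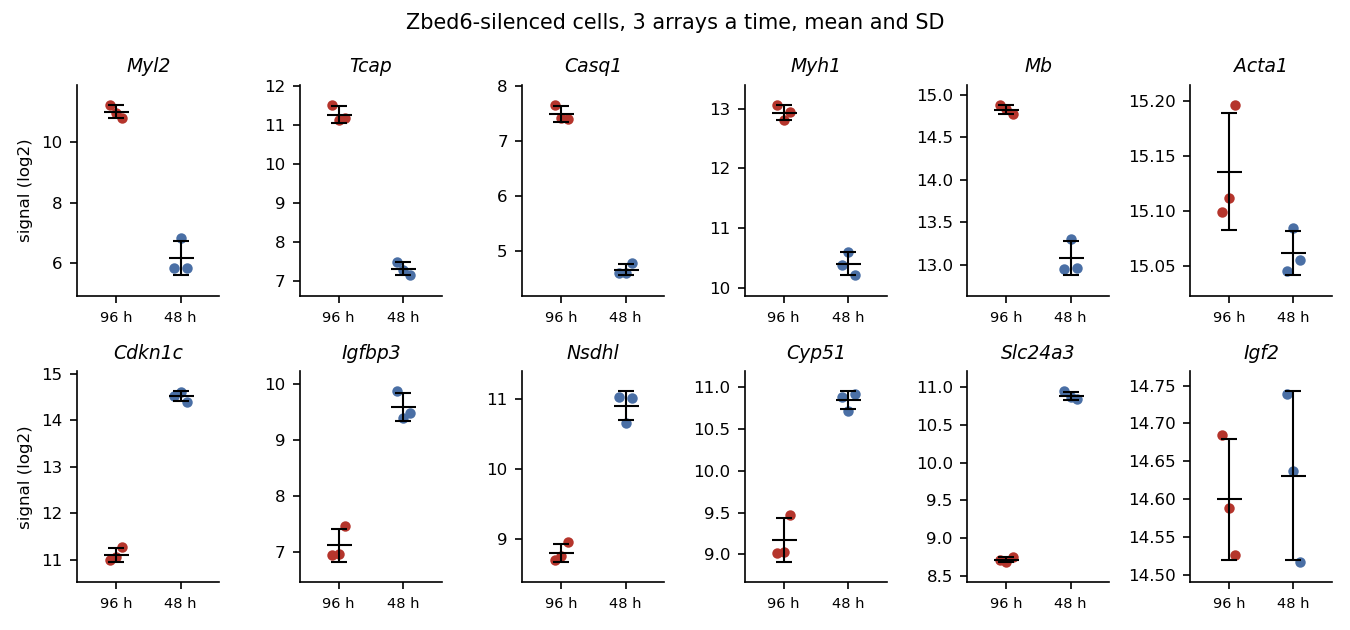
Signals (log2) of 12 genes on each of the 3 arrays at 96 h (left) and 48 h (right) in *Zbed6*-silenced cells, with the mean and SD; each panel has its own vertical range. *Myl2*, *Tcap*, *Casq1*, *Myh1* and *Mb* are higher at 96 h on every array and *Cdkn1c*, *Igfbp3*, *Nsdhl*, *Cyp51* and *Slc24a3* lower, while the *Igf2* arrays overlap and those of *Acta1* span a very narrow range.

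In the muscle metabolism list 12 of 24 genes rose and 2 fell (median 0.38, or 0.24 without silenced 96 h replicate 1). *Mb*, myoglobin, had 14.87, 14.83 and 14.77 at 96 h, against 12.95, 13.31 and 12.96 at 48 h, a 3.37-fold rise (limma adjusted p = 2.03e-07). *Art1*, an ADP-ribosyltransferase of muscle, rose by 1.84 ± 0.21, the fatty acid binding protein *Fabp3* by 0.81 ± 0.14 and the muscle phosphofructokinase *Pfkm* by 0.68 ± 0.11. Creatine kinases went apart. *Ckmt2*, the mitochondrial form of sarcomeric muscle, rose by 1.07 ± 0.21, whereas the cytosolic muscle and brain forms fell, *Ckm* with a change of −0.73 ± 0.15 and *Ckb* with −0.38 ± 0.09.

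In the calcium handling list 5 of 23 genes rose and 3 fell (median 0.14, or 0.21 without silenced 96 h replicate 3), shares near those of all genes. *Sypl2*, which encodes mitsugumin 29, rose by 1.38 ± 0.21 and the ryanodine receptor *Ryr1* by 0.74 ± 0.14. *Srl*, sarcalumenin, had a change of −0.97 ± 0.12 and the channel subunit *Cacna2d1* of −1.12 ± 0.20.

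Some genes were called in both directions by different probes, which was the case for 27 of 515 genes with at least 2 called probes. *Asph*, whose transcripts encode an aspartyl hydroxylase or the reticulum proteins junctin and junctate, changed by 0.55 with 1 probe and by −1.32 with another, and by 0.12 with its brightest. *Usp38*, a deubiquitinase, gave 0.43 and −1.02, and *Nfic*, a nuclear factor I gene, gave 0.48 and −0.63. A single value does not describe these genes.

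Regulators of myogenesis were split, with 8 of 25 higher and 5 lower and no clear median shift (0.03, between 0.01 and 0.10 without each array in turn). *Mef2c*, a MADS-box factor of muscle differentiation, had 10.50, 10.30 and 9.97 at 96 h, against 8.74, 8.93 and 8.55 at 48 h, a 2.86-fold rise. *Myf6*, the late factor MRF4, rose by 1.14 ± 0.21 and was detected on 1 of 3 arrays at 48 h. *Id3* and *Id1*, inhibitors of basic helix-loop-helix factors, rose by 1.88 ± 0.14 and 1.21 ± 0.13 alongside these factors. *Mef2a*, of the same family as *Mef2c*, had a change of −0.80 ± 0.12, and *Tead4*, a TEAD factor of differentiating myoblasts, of −0.67 ± 0.11. *Myod1* did not pass the test (−0.06 ± 0.10).

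Of 24 genes of fusion and adhesion, 1 rose and 6 fell (median 0.01, between −0.08 and 0.06 without each array in turn). *Itga6*, a laminin-binding integrin, had a change of −0.96 ± 0.10, *Jam3*, a junctional adhesion molecule, of −0.85 ± 0.12 and N-cadherin *Cdh2* of −0.57 ± 0.09. *Elmo1*, a regulator of Rac, was not above background on any 96 h array and was at least 1.73-fold lower. *Dysf*, the membrane repair protein dysferlin, was the single riser (0.61 ± 0.14). At the endplate 4 of 14 genes rose (28.6%, against 15.2% of all genes) and 2 fell (14.3%, against 12.1%), with a median of 0.02. *Agrn*, the synaptic organiser agrin (0.46 ± 0.09), and *Chrne*, the adult acetylcholine receptor subunit (0.53 ± 0.12), were among the risers.

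The deepest fall among the named genes was that of *Cdkn1c*, which encodes the CDK inhibitor p57. Its signal was 10.98, 11.05 and 11.27 at 96 h, against 14.53, 14.61 and 14.40 at 48 h. The gene was 10.7-fold lower at 96 h (log2 change −3.42 ± 0.11 SE, limma adjusted p = 1.13e-09, exact two-sided permutation p = 0.1), with no overlap between the times. Naming the largest falls only where the times did not overlap fixed this permutation p as well. In its list of G1 cyclins and CDK inhibitors, 2 of 25 genes rose and 6 fell. *Cdkn2d*, the inhibitor p19, rose by 0.63 ± 0.11, while *Cdk2* had a change of −0.62 ± 0.08 and *Gadd45g*, a growth arrest gene, of −0.67 ± 0.08.

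Of 48 measured mitotic genes 13 rose, 1 fell and 34 did not pass the test, and 44 had a change above 0. Their median was 0.25, between 0.17 and 0.35 without each array in turn, against 0.02 over all genes. *Ncapd2*, a condensin subunit, rose by 0.59 ± 0.09, *Foxm1*, a transcription factor of mitotic genes, by 0.53 ± 0.13 and the phosphatase *Cdc25b* by 0.79 ± 0.17. *Lmnb1*, a B-type lamin, rose by 0.86 ± 0.14. The single faller was the kinase *Melk* (−0.93 ± 0.22).

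Among 44 genes of DNA replication 11 rose and 2 fell (median 0.20, or 0.11 without silenced 96 h replicate 3 or with the mean over the probes of a gene). The replicative helicase genes *Mcm4* (0.40 and −0.41) and *Mcm6* (0.35 and −0.88) had probes called in both directions. The polymerase genes *Pold1* (0.46 ± 0.09) and *Pole* (0.62 ± 0.15) and the mismatch repair gene *Msh6* (0.42 ± 0.10) were higher. *E2f2*, an E2F factor, went the other way and was 2.75-fold lower at 96 h, with 11.41, 11.45 and 11.37 at 96 h, against 13.01, 12.69 and 12.92 at 48 h. Of the fallers, *E2f2* and *Melk* had promoter windows, and *Melk* held neither the CCAAT box nor the motif TTTGAA, both known from cell cycle promoters. *E2f2* has 2 annotated starts, and CCAAT stood in both windows but TTTGAA in that of the second start only. Of all single windows 37.4% held CCAAT and 17.9% TTTGAA.

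**Figure D3:**
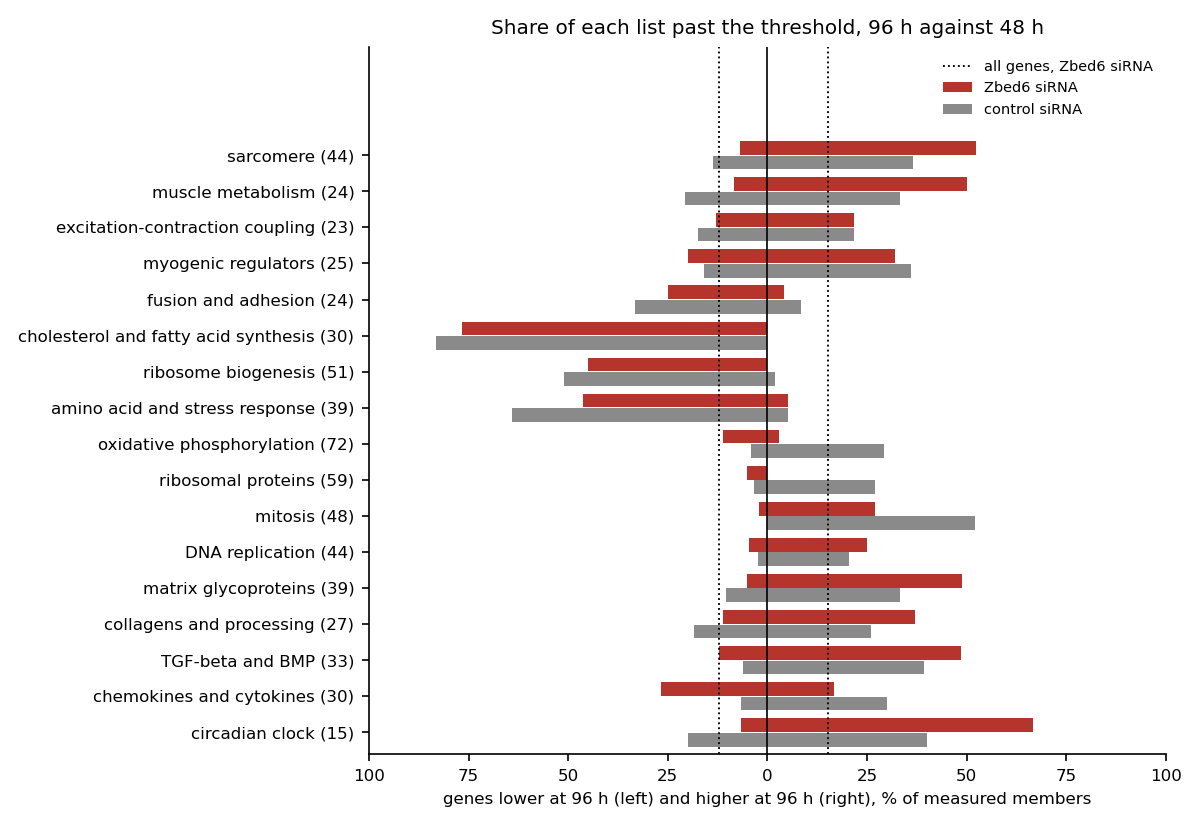
Percent of measured genes of each list (number measured in brackets) called lower (left of 0) or higher (right of 0) at 96 h, in *Zbed6* siRNA (red) and control siRNA (grey) cells. Dotted lines mark all genes under silencing, 12.1% lower and 15.2% higher; of the lists drawn, cholesterol and fatty acid synthesis reaches farthest to the left and the circadian clock farthest to the right under silencing.

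Cholesterol and fatty acid synthesis moved one way. Of 30 measured genes 23 fell, 0 rose and 7 did not pass the test (median −0.73). *Nsdhl*, which acts in the removal of C4 methyl groups from sterols, had 8.70, 8.76 and 8.95 at 96 h, against 11.03, 10.66 and 11.01 at 48 h, a 4.28-fold fall (limma adjusted p = 9.51e-07). *Cyp51*, lanosterol demethylase, had 9.02, 9.02 and 9.47 at 96 h, against 10.89, 10.72 and 10.92 at 48 h, a 3.19-fold fall. Neither gene's groups overlapped, which was so for 96.9% of all called probes. *Msmo1*, the sterol C4 oxidase, averaged 7.63 ± 0.06 at 96 h and 9.33 ± 0.14 at 48 h (SD, n = 3 each).

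Members from early to late steps of the pathway fell. *Hmgcs1*, HMG-CoA synthase, had a change of −0.85 ± 0.09, *Mvd*, of the mevalonate steps, of −1.31 ± 0.12 and *Idi1*, the isomerase of isoprene units, of −1.27 ± 0.13. *Fdps*, farnesyl diphosphate synthase, had −1.08 ± 0.11, *Sqle*, squalene epoxidase, −1.06 ± 0.08 and *Lss*, lanosterol synthase, −1.06 ± 0.10. Among the regulators, *Srebf1*, which encodes SREBP1, fell by 0.52 ± 0.12, whereas *Srebf2*, which encodes SREBP2, did not pass the test (−0.15 ± 0.09). *Fasn*, fatty acid synthase (−0.31 ± 0.18), and *Ebp*, a sterol isomerase (0.09 ± 0.09), did not pass it either.

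In the list of the amino acid and integrated stress response 18 of 39 genes fell and 2 rose (median −0.31). *Atf4*, the transcription factor of that response, had 9.74, 9.89 and 10.09 at 96 h, against 10.88, 10.73 and 10.73 at 48 h. The pseudokinase *Trib3* had a change of −1.18 ± 0.17, *Cth*, which makes cysteine, of −1.18 ± 0.12, *Psat1*, of serine synthesis, of −0.62 ± 0.10 and the secreted *Stc2* of −0.73 ± 0.08. The 2 risers were *Atf5*, a related factor (0.35 ± 0.08), and *Nupr1*, a stress-induced nuclear protein (0.44 ± 0.10).

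Of 51 genes of ribosome biogenesis 23 fell and 0 rose (median −0.25). *Noc3l* (−0.58 ± 0.09), *Grwd1* (−0.58 ± 0.10) and *Rrp9* (−0.61 ± 0.11), which act in pre-ribosome assembly or rRNA processing, were among them. Of 59 ribosomal proteins 3 fell and 0 rose (median −0.03, or −0.20 with arrays scaled to a common median). In the oxidative phosphorylation list 8 of 72 genes were lower and 2 higher (median −0.04, or −0.18 with median scaling), both below the shares of all genes. Without 1 array these medians stayed between −0.06 and −0.01. *Cox7a1*, the muscle form of a cytochrome oxidase subunit, was one of the risers (0.96 ± 0.20).

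Of 39 matrix glycoproteins 19 rose and 2 fell (median 0.36). *Igfbp7*, a secreted protein related to the IGF carriers, averaged 13.65 ± 0.10 at 96 h and 12.60 ± 0.10 at 48 h (SD, n = 3 each). *Fbln2*, an elastic fibre protein, rose by 1.02 ± 0.08, the crosslinking enzymes *Lox*, lysyl oxidase, and *Tgm2*, transglutaminase, by 1.13 ± 0.13 and 1.17 ± 0.12, and *Nid2*, a basement membrane linker, by 0.88 ± 0.07. *Dcn*, the proteoglycan decorin, fell by 1.08 ± 0.11.

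Of 27 collagens and processing enzymes 10 rose and 3 fell (median 0.21). *Col1a1*, of fibrillar collagen, had 8.14, 8.02 and 8.29 at 96 h, against 6.88, 6.61 and 6.77 at 48 h, a 2.63-fold rise. *Pcolce2* and *Bmp1*, which take part in the cleavage of procollagen, rose by 1.11 ± 0.10 and 0.73 ± 0.09. The basement membrane chains went the other way, *Col4a1* with a change of −0.62 ± 0.09 and *Col4a2* with −0.51 ± 0.11. The third faller, *Col15a1*, was detected on 2 of 3 arrays at 48 h and on 0 of 3 at 96 h. *Col17a1*, a hemidesmosome collagen that is not in the list counted here, averaged 5.43 ± 0.11 at 96 h and 7.04 ± 0.12 at 48 h, and its other kept probes gave −0.80 and −0.46.

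Of 33 genes of TGF-beta and BMP signalling 16 rose and 4 fell (median 0.36). Among ligands *Tgfb1* had 7.74, 7.31 and 7.92 at 96 h, against 6.71, 6.71 and 6.55 at 48 h, *Tgfb3* rose by 0.77 ± 0.10 and the activin chain *Inhba* by 0.71 ± 0.11. Secreted antagonists rose as well, with *Fst*, follistatin, at 1.23 ± 0.18 and *Grem1*, gremlin, at 1.13 ± 0.11 with detection on 1 of 3 arrays at 48 h. *Smad6*, an inhibitory SMAD, was not above background at 48 h and was at least 1.72-fold higher at 96 h. The receptor *Tgfbr1* fell by 0.54 ± 0.10. The BMP-responsive genes *Id1* and *Id3*, described above, are members of this list too.

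In the IGF axis 5 of 19 genes rose (26.3%, against 15.2% of all genes) and 3 fell (15.8%, against 12.1%). *Igfbp3*, a carrier of insulin-like growth factors, had 6.94, 6.95 and 7.46 at 96 h, against 9.87, 9.40 and 9.49 at 48 h, a 5.55-fold fall (limma adjusted p = 4.27e-07). *Igfbp4*, another carrier, had 6.04, 6.16 and 6.18 at 96 h, against 7.82, 7.79 and 7.38 at 48 h, while *Igfbp6*, which prefers the IGF2 protein, averaged 10.21 ± 0.16 at 96 h and 9.07 ± 0.10 at 48 h (SD, n = 3 each). Carriers thus went in both directions. *Igf1* did not pass the test (0.03 ± 0.14).

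The circadian clock list had 10 of 15 genes higher and 1 lower (median 0.32). *Dbp*, an output factor of the clock, rose by 0.58 ± 0.08, and the period genes *Per1*, *Per2* and *Per3* by 0.70 ± 0.16, 0.72 ± 0.17 and 0.95 ± 0.19, while *Ciart*, a clock repressor, fell by 0.84 ± 0.13. The samples cover 2 times only, 2 whole days apart.

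Other genes with large rises had varied functions. *Gja5*, the gap junction protein connexin 40, had 8.28, 8.41 and 8.76 at 96 h, against 5.30, 5.22 and 5.52 at 48 h, when it was detected on 1 of 3 arrays, and its other kept probes gave 1.76 and 0.00. The size of its rise thus depended on the probe. *Pacsin1*, an endocytic adaptor, rose by 3.10 ± 0.18, *Fxyd6*, a regulator of the sodium pump, by 2.83 ± 0.18 and *Ntn5*, of the netrin family, by 2.69 ± 0.18. *Camk2b*, a calcium-dependent kinase, rose by 2.33 ± 0.21, *Car3*, a carbonic anhydrase of slow muscle and fat, by 2.24 ± 0.24, *Medag*, a gene linked to adipocyte formation, by 2.34 ± 0.10 and the granzyme *Gzme* by 2.66 ± 0.28. *Upk1b*, a uroplakin, was not above background at 48 h and was at least 3.45-fold higher, and *Tnfrsf19*, of the TNF receptor family, likewise at least 3.08-fold.

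Among the falls, *Slc24a3*, a potassium-dependent sodium and calcium exchanger, had 8.71, 8.69 and 8.75 at 96 h, against 10.95, 10.87 and 10.84 at 48 h. Its arrays lay close together at each time. *Ptn*, the growth factor pleiotrophin, had a change of −1.99 ± 0.16, *Hnrnph2*, an RNA-binding protein, of −1.84 ± 0.24, and *Apod*, an apolipoprotein, of −1.65 ± 0.14. The phosphodiesterase *Pde2a* had −1.64 ± 0.12 and *Myzap*, a protein of cardiac cell junctions, −1.51 ± 0.09. *Plin4*, a lipid droplet coat protein, was not above background at 96 h and was at least 2.83-fold lower.

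Most markers of other cell types did not pass the detection filter. Of 21 listed adipocyte markers 9 were measured, with *Lpl* higher and *Plin4* lower, and their summed linear signal was 5086 to 5685 at 96 h and 5184 to 5438 at 48 h. For bone and cartilage 4 of 20 were measured, with *Bglap*, osteocalcin (1.44 ± 0.26), and *Dlx3*, a homeobox factor (1.29 ± 0.16), higher, and the sum was 889 to 915 at 96 h and 602 to 746 at 48 h, without overlap. Of 23 leukocyte markers 3 were measured, of which *Cd14* was called higher and *Cd3e* lower, both calls being lost without silenced 48 h replicate 2 and that of *Cd14* also without most other arrays, and the sum was 136 to 149 at 96 h and 146 to 153 at 48 h. Of 21 epithelial and endothelial markers 8 were measured and 0 called, and of 20 neuron and glia markers 9 were measured, 1 called higher and 2 lower. The smooth muscle list, whose genes myoblasts also express, had 7 of 23 higher and 2 lower, with a sum of 132958 to 137977 at 96 h and 117097 to 131355 at 48 h. The part of these markers in the other changes was not tested.

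Control cells were followed over the same interval. There 4223 of 13095 probes were called (32.2%), or 2819 of 8858 genes by the brightest probe (31.8%), on arrays that the silenced comparison does not use, although all 12 arrays were normalized together and share the estimate of spread. In all, 1960 probes were called in the same direction in silenced and control cells, which is 53% of the silenced calls and 46.4% of the control calls, and 43 were called in opposite directions. *Myl2* changed by 4.86 in silenced cells and 4.56 in control cells, *Tcap* by 3.97 in silenced and 3.52 in control cells, and *Cdkn1c* by −3.42 in silenced and −3.67 in control cells. The difference between the changes did not pass the test for these 3 genes (limma adjusted p = 0.657, 0.214 and 0.356). In the cholesterol list 23 of 30 genes fell in silenced cells and 25 in control cells.

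Whether the change with time differed was tested as the change in silenced cells minus the change in control cells. This difference passed for 384 of 13095 probes (2.93%), 192 in each direction, and 29 of them exceeded 2-fold. With 1 array left out it passed for between 63 probes (without control 96 h replicate 2) and 368 (without silenced 48 h replicate 1), and for at most 255 without any of the other arrays. Of 1697 probes called in silenced cells only, 154 also passed the test of the difference.

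**Figure D4:**
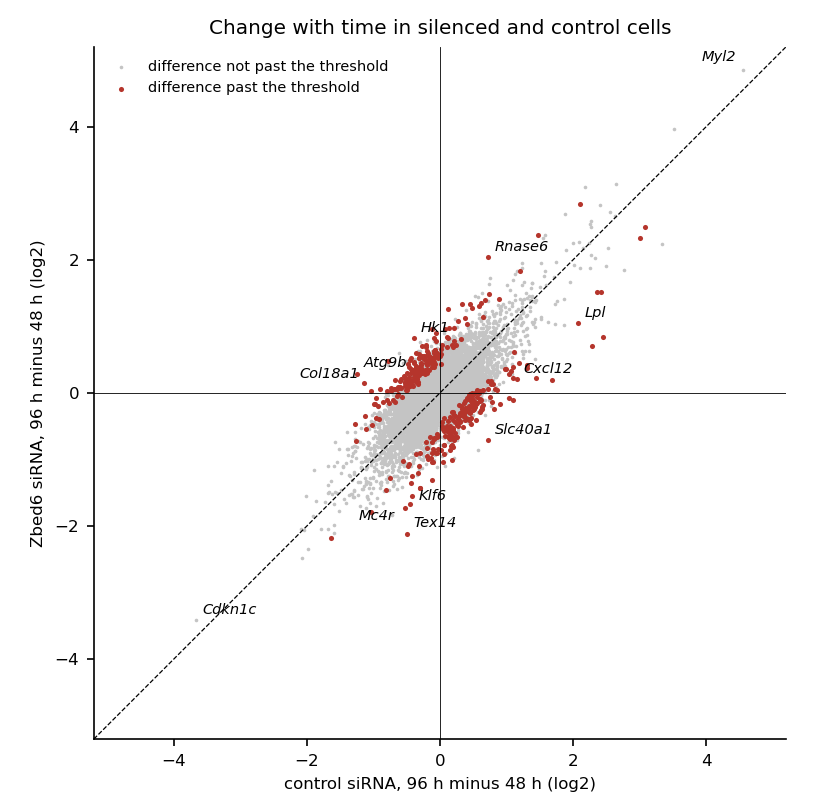
Change with time in silenced cells (vertical axis) against control cells (horizontal axis), both log2, 96 h minus 48 h, for 13095 probes; red points are the 384 probes whose difference passed the limma test and the dashed line marks equal change. *Myl2* and *Cdkn1c* lie near the line, while *Slc40a1*, *Tex14*, *Mc4r*, *Klf6*, *Cxcl12* and *Lpl* lie below it and *Rnase6*, *Hk1*, *Atg9b* and *Col18a1* above it.

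*Slc40a1*, the iron exporter ferroportin, fell under silencing and rose in control cells. Its signal was 8.56, 8.75 and 8.55 at 96 h, against 9.34, 9.27 and 9.36 at 48 h in silenced cells. In control cells it averaged 8.64 ± 0.08 at 96 h and 7.91 ± 0.05 at 48 h (SD, n = 3 each). The 96 h arrays of silenced and control cells overlapped, and the 48 h level was higher in silenced cells (difference of changes −1.44 ± 0.12 SE, limma adjusted p = 0.000255).

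*Klf6*, a zinc finger factor, had 8.90, 9.14 and 8.90 at 96 h, against 10.88, 10.36 and 10.73 at 48 h in silenced cells. In control cells it averaged 10.43 ± 0.14 at 96 h and 10.87 ± 0.08 at 48 h, so that the fall was the larger one under silencing (difference −1.23 ± 0.18, limma adjusted p = 0.0159). *Tex14*, a gene of germ cell bridges, was not above background at 96 h in silenced cells and had 6.84, 7.36 and 6.90 at 48 h, a fall of at least 3.27-fold. In control cells it was detected on 0 of 3 arrays at 96 h and 1 of 3 at 48 h (limma adjusted p of the difference = 0.00186), so the size of the difference is not known. *Mc4r*, a melanocortin receptor, averaged 5.13 ± 0.21 at 96 h and 6.85 ± 0.09 at 48 h in silenced cells and 4.79 ± 0.05 at 96 h and 5.32 ± 0.12 at 48 h in control cells, where it was detected on 0 of 3 arrays at 96 h and 2 of 3 at 48 h. *Nrep*, a gene linked to nerve regeneration, changed by −0.39 in silenced cells and by 0.43 in control cells.

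*Col18a1*, the collagen from which endostatin is cut, had 12.38, 12.35 and 12.32 at 96 h, against 12.36, 12.27 and 12.33 at 48 h in silenced cells. In control cells it had 12.32, 12.20 and 12.28 at 96 h, against 13.20, 13.39 and 13.33 at 48 h (difference 1.07 ± 0.11 SE, limma adjusted p = 0.00186). Of the 4 groups the control cells at 48 h stood apart, and a second probe of the gene gave a difference of 0.96. *Atg9b*, an autophagy gene, averaged 8.64 ± 0.25 at 96 h and 8.35 ± 0.15 at 48 h in silenced cells and 8.16 ± 0.10 at 96 h and 9.40 ± 0.21 at 48 h in control cells.

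*Hk1*, hexokinase, rose by 0.82 ± 0.12 under silencing and changed by −0.38 in control cells (difference 1.2 ± 0.17, limma adjusted p = 0.0152). *Rnase6*, a secreted ribonuclease, was at least 2.45-fold higher at 96 h in silenced cells, while 1 of 6 control arrays detected it. *Bsg*, basigin, was below detection with its kept probe on all silenced arrays, and its difference rests on the 3 control arrays at 48 h that detected it. *Cxcl12*, a chemokine, averaged 8.87 ± 0.17 at 96 h and 8.66 ± 0.12 at 48 h in silenced cells and 9.61 ± 0.21 at 96 h and 8.45 ± 0.09 at 48 h in control cells. *Lpl*, lipoprotein lipase, rose by 1.05 ± 0.11 in silenced cells and by 2.08 in control cells.

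**Figure D5:**
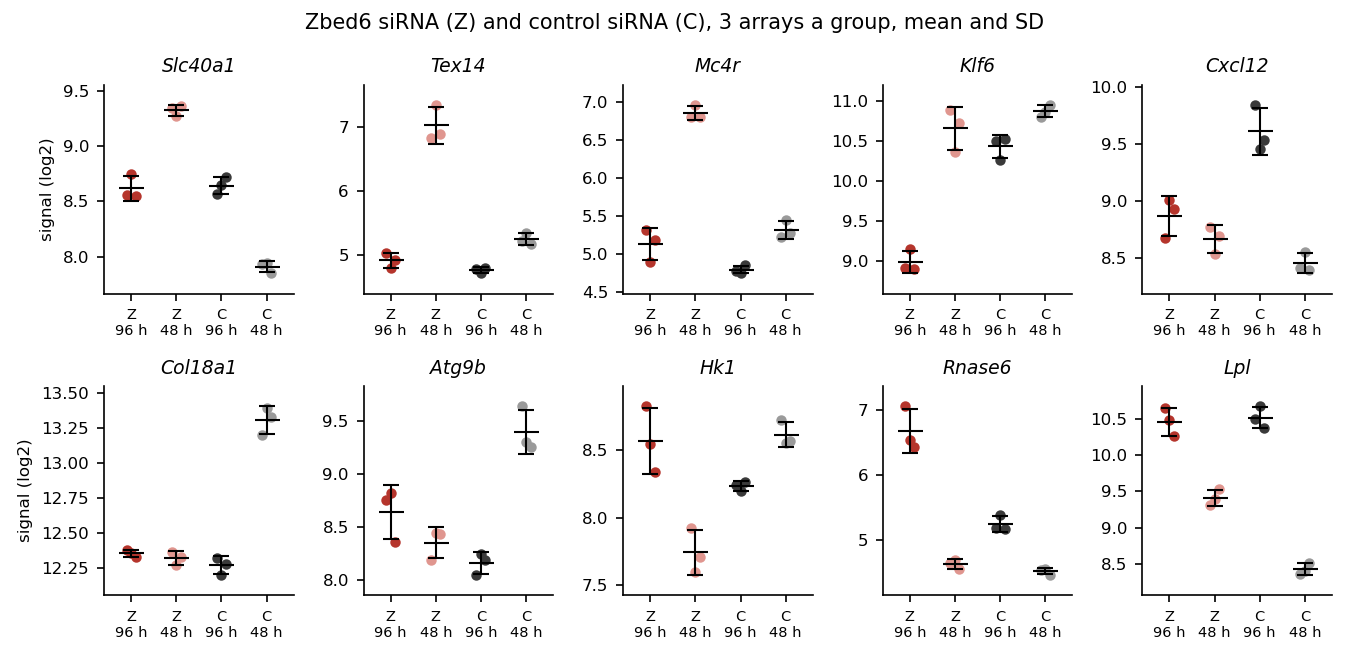
Signals (log2) of 10 genes on the 3 arrays of each group, *Zbed6* siRNA (Z) at 96 h and 48 h and control siRNA (C) at 96 h and 48 h, with the mean and SD; each panel has its own vertical range. *Slc40a1* moved in opposite directions in silenced and control cells, and the control 48 h arrays stand apart for *Col18a1* and *Atg9b*.

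At the level of lists the difference passed for few members. It passed as higher for 4 of 27 collagen genes (14.8%). It passed as lower for 4 of 72 oxidative phosphorylation genes (5.56%) and 4 of 30 chemokine and cytokine genes (13.3%). Over all 13095 probes it passed for 192 as higher and 192 as lower, which is 2.93% for both directions together. The median change of oxidative phosphorylation genes was −0.04 in silenced cells and 0.15 in control cells, where 21 of 72 were higher and 3 lower. For ribosomal proteins the medians were −0.03 in silenced cells and 0.16 in control cells, and 1 of 59 passed the test of the difference. The 11 measured housekeeping genes had medians of −0.06 in silenced cells and 0.21 in control cells, with 0 past that test, and the median in silenced cells was 0.06 without silenced 48 h replicate 3. Mitotic genes had medians of 0.25 in silenced cells and 0.35 in control cells, with 0 of 48 past that test.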

How the data were processed

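RNA of 12 C2C12 cultures was hybridized to MouseRef-8 v2 BeadChips. Groups and replicate numbers came from the sample labels, which call the replicates biological. The authors deposited the bead intensity of each probe without background subtraction or normalization. Beside each intensity stands, per the file headers, its detection p-value. A second deposited table holds values on a log2 scale, processed by the authors with lumi, whose exact transformation and centring are not stated. Those columns correlated with the raw signal of their own array at 0.876 to 0.901, had medians of 7.845 to 7.851, and served only as an alternative. Columns without a sample numbered 0.

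Intensities were corrected by normexp from the detection p-values, offset by 16, quantile normalized over 12 arrays and put on a log2 scale (neqc in limma 3.58.1, R 4.3.3). Of 25697 probes 23978 had 1 gene symbol in the platform annotation, 0 several and 1719 none. Those detected at a p-value under 0.05 on at least 3 arrays were kept (13095, of which 763 had no name). A fit of 4 group means over 12 arrays gave the change with time in silenced cells, in control cells and their difference, adjusted by Benjamini-Hochberg over kept probes. For 3 single genes an exact permutation test (two-sided) was run as well. In named genes and lists the brightest kept probe stood for a gene (2441 genes had more than 1). The fit was also run on simulated data with independent noise and far fewer changed probes than here, as a check of the code. Normalization was not part of that simulation.

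Named genes were *Zc3h11a* and *Igf2*; the 15 largest rises and falls whose 96 h arrays lay outside the 48 h range and that were detected on all arrays of a group; the 5 smallest p-values in each direction for the change and for the difference; members of the lists by smallest p; and genes with probes called in opposite directions. Other members (*Acta1*, *Tnnc1*, *Mylpf*, *Myl1*, *Tnnc2*, *Srebf2*, *Fasn*, *Ebp*, *Myog*, *Igf1*) were named after their values were seen. The genes and lists were chosen with earlier results of these data known. Signals near the upper end of the scale can compress changes, which was not tested here, and those near background give bounds only. The number of arrays limits the precision. Alternatives were other background, scaling, filter, probe and model choices and the omission of each array. The slide of each array is not known.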

Additional observations from a re-analysis of the deposited data

Results flagged for a closer look

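The test of the difference in change between silenced and control cells passed for 384 of 13095 probes (limma, n = 3 arrays a group). The 10 genes flagged here were chosen for the smallest p-values of that test in each direction. Their number and their even split between directions thus come from the choice. On the log2 scale, silenced minus control, the change was higher under silencing for *Atg9b* (1.53), *Rnase6* (1.32), *Hk1* (1.2), *Col18a1* (1.07) and *Bsg* (0.87). It was lower under silencing for *Tex14* (−1.63), *Slc40a1* (−1.44), *Klf6* (−1.23), *Mc4r* (−1.2) and *Nrep* (−0.82). *Bsg* was below detection on all 6 silenced arrays, *Tex14* on all control arrays but 1, *Mc4r* on all 3 control arrays at 96 h and *Rnase6* on all control arrays but 1. For these 4 genes the fitted value is no measured size.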

How the results depend on the processing

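Of 1209 values for 50 gene results (the change under silencing, or the difference from control cells) under the alternatives, 1204 kept their direction and their side of the threshold. These genes were mostly chosen for large changes or small p-values. Of all 457 list members and named genes called under silencing, which the list counts rest on, 320 kept the call when any 1 array was left out, 336 kept it under all other alternatives, and 3 reversed with the mean over probes. With the authors' processed values the difference lost its call for *Bsg* (log2 difference 0.09) and *Rnase6* (log2 difference 0.16). Without each array in turn the calls under silencing ranged from 2803 to 3837, with 1371 to 1909 higher and 1432 to 1928 lower, against 3700. Control calls ranged from 3053 to 4333, with 1509 to 2168 higher and 1544 to 2165 lower, and calls of the difference from 63 to 368, with 27 to 175 higher and 36 to 193 lower. The lowest count of differences, 63, came without control 96 h replicate 2. Calls of the difference were 778 with the authors' values (385 higher, 393 lower), 820 with no background correction (388 and 432), 771 with an offset of 50 (373 and 398), 732 with the stricter filter (360 and 372) and 953 with a trended and robust variance prior (462 and 491), against 384. With 1 probe per gene the falls numbered 1094 in silenced and 1347 in control cells, and 1225 in silenced cells with the mean over probes. Replicate numbers did not pair the silenced arrays (correlations of same-numbered deviations −0.173, −0.04 and −0.013). With the replicate number as a block there were 3469 calls under silencing and 224 of the difference (112 in each direction). With the authors' values 232 of the 457 genes moved over 1.5 times and 35 lost the call, for example 0.46 for *Casq1* and 2.57 for *Myl2*. List medians with those values were −0.44 for cholesterol, 0.12 for matrix glycoproteins, 0.11 for TGF-beta and BMP, 0.08 for collagens, 0.11 for mitosis, 0.11 for DNA replication, −0.13 for the stress response, −0.16 for ribosome biogenesis, 0.19 for muscle metabolism and 0.12 for the circadian clock. The matrix glycoprotein median was 0.23 with median scaling. Medians of the cholesterol, sarcomere, mitosis, ribosome biogenesis and matrix glycoprotein lists kept their sign under all 25 alternatives. Several of these could not move a median. The omission of a control array, the replicate block and the variance prior leave each gene's log2 change under silencing as it is. The median of the fusion and adhesion list changed sign in 4 of the 25, that of the endplate list in 2 and that of the housekeeping list in 1. The cause of these shifts was not tested. Blocking by slide was not run, as the files name no slide. Probes below detection limit the data to bounds, and the brightest probes leave little range above them.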
